A study of Mus musculus with 18 samples.

Results

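The genes described here make sterols and fatty acids or control that synthesis, and 32 of them were taken from the 22787 genes of the expression table by their symbols. They comprise 16 enzymes of sterol synthesis (Acat2, Hmgcs1, Mvk, Pmvk, Mvd, Idi1, Fdps, Fdft1, Sqle, Lss, Cyp51, Tm7sf2, Nsdhl, Hsd17b7, Ebp and Dhcr7), 6 genes of the sterol-sensing SREBP system (Insig1, Insig2, Srebf1, Srebf2, Scap and Stard4), 5 genes of the liver X receptors and their targets (Nr1h2, Nr1h3, Abca1, Abcg1 and Mylip), and 5 genes of fatty acid synthesis (Fasn, Acly, Acaca, Acss2 and Me1). Desaturases and elongases were not included. RNA was sequenced from 18 mouse libraries in 7 groups. GMPs (granulocyte-monocyte progenitors) were sorted from bone marrow of a Raptor line and a Tsc2 line. Each line had 3 KO and 3 fl/fl libraries. Raptor is the defining subunit of the kinase complex mTORC1, and Tsc2 is part of the complex that restrains mTORC1. DR-ER-Hoxb8 cells, an immortalized myeloid progenitor line held undifferentiated by estradiol-dependent Hoxb8, were grown for 3 days without estradiol in medium with stem cell factor and 100 nM rapamycin, 10 nM SL0101-01 or DMSO, with 2 libraries each. Rapamycin inhibits mTORC1, and SL0101-01 is an inhibitor of the kinase RSK.

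The genotype field of the 6 libraries titled Tsc2 names Raptor, so groups follow the titles. The labels give neither the Cre that deletes the floxed alleles nor the strain, sex or age of the mice, and they leave unstated if a replicate was its own animal or culture. The p-values therefore measure the spread between these libraries, which may be technical. Values are gene fragments that the authors divided by a size factor per library, called units here. Gene fragments totalled 2477382 to 3524325 per GMP library and 2313883 to 3296899 per Hoxb8 library. Summed over 4 Y-linked genes, Tsc2 fl/fl replicate 2 had 384.9 units and Tsc2 KO replicate 2 had 317.7 units. The other GMP libraries had 0 to 0.8 units, so both Tsc2 groups mixed sexes. Rptor stood at 61.5, 58.7 and 69.5 units in Raptor KO, against 88.0, 78.6 and 86.8 units in Raptor fl/fl, and did not pass the test (log2 change -0.41, limma adjusted p = 0.377). Tsc2 stood at 103, 99.0 and 82.96 units in Tsc2 KO, against 269, 235 and 241 units in Tsc2 fl/fl (log2 change -1.38, limma adjusted p = 0.000169). The 10 GMP markers summed to 8870 to 41310 units in Tsc2 KO and to 37580 to 83980 units in Tsc2 fl/fl.

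Cholesterol is built from acetyl-CoA through mevalonate, isoprenoids, squalene and lanosterol. When sterols in the endoplasmic reticulum are low, the escort protein Scap carries the membrane-bound SREBP transcription factors, encoded by Srebf1 and Srebf2, to the Golgi, where proteases free their active part. Insig1 and Insig2 hold Scap back when sterols are plentiful, and Insig1 is itself an SREBP target. Liver X receptors (Nr1h2 and Nr1h3) sense oxidised sterols and induce the cholesterol exporters Abca1 and Abcg1 and the ubiquitin ligase Mylip, which leads lipoprotein receptors to degradation. In liver and cultured cells mTORC1 is known to raise SREBP activity.

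The 250 bases before the annotated start are shown for 4 genes that the results below turn on. Hmgcs1 changed in opposite directions in Raptor KO GMPs and under rapamycin, Insig1 passed the test in 5 of the 6 comparisons, and Idi1 and Lss rose in Tsc2 KO GMPs. All 4 lie on the plus strand and come from RefSeq on GRCm38.p6. Capitals mark 3 motifs searched on both strands, which did not overlap one another: CCAAT, the core of the NF-Y site (ATTGG on the other strand), TCACNCCAC, a sterol regulatory element, and CACGTG, an E-box.
Hmgcs1, chr13:119690101-119690350: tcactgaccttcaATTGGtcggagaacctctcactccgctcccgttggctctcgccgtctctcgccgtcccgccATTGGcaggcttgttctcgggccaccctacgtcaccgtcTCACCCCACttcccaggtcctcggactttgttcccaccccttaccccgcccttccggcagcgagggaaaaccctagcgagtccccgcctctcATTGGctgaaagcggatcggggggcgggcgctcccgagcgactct
Insig1, chr5:28071162-28071411: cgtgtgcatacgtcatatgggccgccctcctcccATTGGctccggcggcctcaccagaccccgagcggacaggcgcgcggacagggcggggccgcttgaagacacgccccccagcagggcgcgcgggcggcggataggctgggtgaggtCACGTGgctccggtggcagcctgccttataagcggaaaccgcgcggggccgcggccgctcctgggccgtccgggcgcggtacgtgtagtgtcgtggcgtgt
Idi1, chr13:8885356-8885605: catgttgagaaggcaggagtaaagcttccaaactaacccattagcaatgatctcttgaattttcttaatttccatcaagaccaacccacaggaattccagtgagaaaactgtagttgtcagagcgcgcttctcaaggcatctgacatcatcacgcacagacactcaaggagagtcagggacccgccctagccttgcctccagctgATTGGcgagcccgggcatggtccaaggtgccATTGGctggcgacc
Lss, chr10:76531355-76531604: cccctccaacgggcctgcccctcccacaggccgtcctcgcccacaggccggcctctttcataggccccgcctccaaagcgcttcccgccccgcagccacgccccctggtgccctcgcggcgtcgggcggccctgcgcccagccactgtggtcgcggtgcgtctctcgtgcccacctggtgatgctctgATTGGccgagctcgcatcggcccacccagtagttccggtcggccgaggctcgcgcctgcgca
At least 1 window was found for 27 of the 32 genes, with none for Fdps, Fdft1, Sqle, Stard4 and Abcg1. These 27 genes have 37 windows, since some have several starts, and a gene is counted when any of its windows holds the motif. CCAAT occurred in 12 of 13 sterol enzyme genes (92.3%), 4 of 5 genes of the SREBP system (80%), 1 of 4 liver X receptor genes (25%) and 3 of 5 fatty acid synthesis genes (60%). It occurred in 37.5% of the 27025 genes with such windows and of the 10274 among them tested in either cell system in 40.5%. The sterol regulatory element as spelled was found, among the 27 genes, only for Hmgcs1, where its bases lie 137 to 129 before the start. It was found for 1.22% of all genes with windows and for 1.28% of those tested. CACGTG occurred for 5 of the 27 genes (18.5%), among them Insig1. It occurred for 6.86% of all genes with windows and for 9.64% of those tested. A match to these letters is a description of the window and not evidence of binding.

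Of the 32 genes, 31 passed the filter on low values in both cell systems. Me1, malic enzyme, which makes NADPH for fatty acid synthesis, was listed at 0 to 1.69 units in GMPs and 0 to 0.790 units in Hoxb8 cells, at most 2 fragments, and was not tested. Nr1h3, the liver X receptor of macrophages, had 2 to 12 fragments per GMP library and 1 to 2 per Hoxb8 library, and Abca1 had 6 to 25 and 5 to 18. Nr1h2, the receptor present in most tissues, had 177 to 335 fragments per GMP library. Among the sterol enzymes, Tm7sf2 and Hsd17b7 had as few as 5 fragments in a GMP library. Passing the test means an adjusted p under 0.05 from limma on log2 of the value plus 1, with the Benjamini-Hochberg adjustment over all genes of the comparison. In all, 16 of the 31 genes passed in at least 1 of the 6 comparisons and the other 16 of the 32, Me1 included, in none. The 6 comparisons share libraries, and the share of all genes passing in at least 1 of them was not counted.

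**Figure D1:**
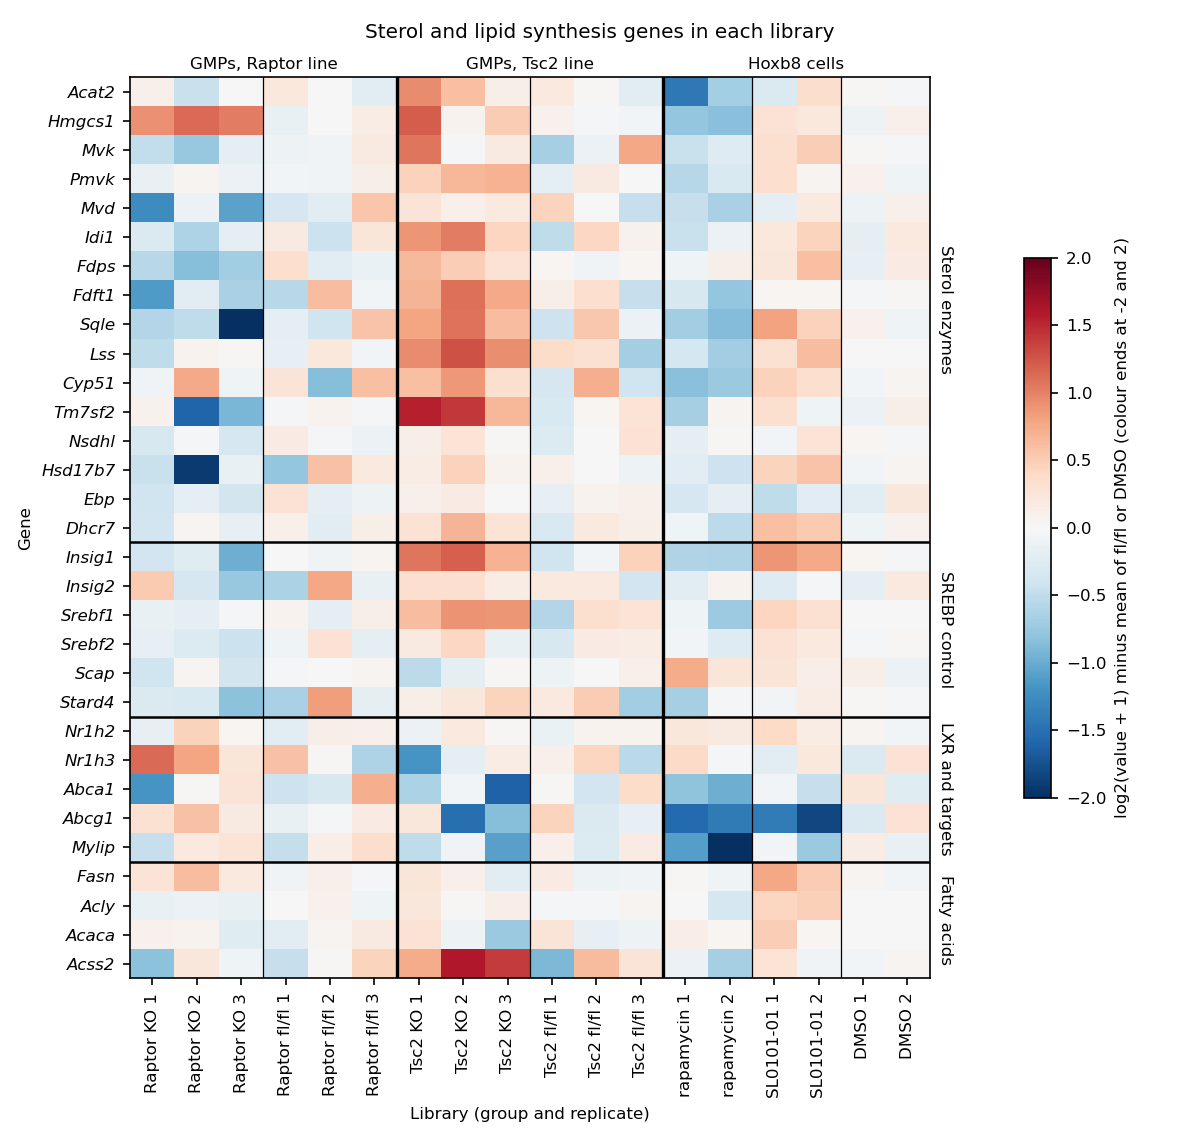
The heat map shows 31 genes in rows by class and 18 libraries in columns by group. Colour is log2(value + 1) minus the mean of the library's own fl/fl or DMSO group, with the scale ending at -2 and 2. The sterol enzyme block is mostly red in the Tsc2 KO columns and mostly blue in the rapamycin columns.

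Deletion of Raptor was set against Raptor fl/fl GMPs. Hmgcs1, the synthase that makes HMG-CoA, rose and Fdps, which makes farnesyl diphosphate, fell. No other gene of the 31 passed. Over all 13237 genes tested 3.94% passed, 1.53% higher and 2.42% lower. Among the 16 sterol enzymes 14 fold changes were negative, with a median log2 change of -0.34 beside 0.03 for all genes tested. Within each Raptor KO library the median log2 deviation of the enzymes from their fl/fl means was -0.39, -0.20 and -0.20 in replicates 1, 2 and 3.

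Hmgcs1 had 178, 207 and 192 units in Raptor KO, against 84.4, 94.2 and 104 units in Raptor fl/fl. Every KO library lay above every fl/fl library, and the gene was 2.03-fold higher (log2 change 1.02 ± 0.23 SE, 95% interval 0.54 to 1.501, limma adjusted p = 0.0184). Fdps had 180.4, 147 and 163 units in Raptor KO, against 336, 231 and 243 units in Raptor fl/fl. The groups did not overlap, and the log2 change was -0.70 ± 0.16 SE (95% interval -1.04 to -0.37, limma adjusted p = 0.0207). Raptor KO and Raptor fl/fl libraries were also fully apart for Mvk and Sqle, with the KO below. Sqle, squalene epoxidase, had 53.8, 56.5 and 17.9 units in Raptor KO, against 71.4, 61.5 and 121 units in Raptor fl/fl. Replicate 3 was the lowest of the KO libraries and the highest of the fl/fl libraries, and the log2 change of -1.07 did not pass (95% interval -1.90 to -0.24, limma adjusted p = 0.134). Without overlap between groups stood 13.3% of all genes tested with KO above and 13.1% with KO below, against 1 and 3 of the 16 enzymes.

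The SREBP system had no call in Raptor KO, and all 6 of its fold changes were negative (median log2 change -0.26). At an unadjusted p under 0.05 it had 0 genes higher and 1 lower, and limma with voom weights called none. At that threshold 1193 of all 13237 genes tested were higher and 1317 lower. Insig1 had 69.3, 77.3 and 46.0 units in Raptor KO, against 91.6, 87.2 and 94.9 units in Raptor fl/fl. The groups did not overlap, but the log2 change of -0.53 did not pass (95% interval -1.05 to -0.01, limma adjusted p = 0.248). Srebf1 had 144, 139.7 and 155 units in Raptor KO and 167, 139 and 173 units in Raptor fl/fl, and the groups overlapped (log2 change -0.12, 95% interval -0.55 to 0.31). Srebf2 had 144, 134 and 120.3 units in Raptor KO and 153, 197 and 140.4 units in Raptor fl/fl, again with overlap (log2 change -0.29, 95% interval -0.70 to 0.13). Scap, the escort, had 105, 145 and 108 units in Raptor KO and 136, 139 and 144 units in Raptor fl/fl. Insig2, the second Insig, had 49.5, 26.8 and 19.7 units in Raptor KO and 21.6, 59.2 and 30.8 units in Raptor fl/fl, a spread that leaves a log2 interval of -1.01 to 0.63.

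The liver X receptor genes and fatty acid genes had no call in Raptor KO either. At an unadjusted p under 0.05 there were 0 of the 5 receptor genes, and 1 of the 4 fatty acid genes tested, on the higher side, and voom called none in both classes. Among all 13237 genes tested, 1193 were higher and 1317 lower unadjusted. Fasn, fatty acid synthase, had 398, 505 and 373 units in Raptor KO, against 312, 351 and 319 units in Raptor fl/fl. Its KO libraries all lay above the fl/fl libraries (log2 change 0.36, 95% interval 0.05 to 0.68, limma adjusted p = 0.182). Acly, which splits citrate into acetyl-CoA, had 484, 492 and 483 units in Raptor KO, against 533, 569.9 and 508 units in Raptor fl/fl. All KO libraries lay below (log2 change -0.14, limma adjusted p = 0.538), so the values of both enzymes separated the groups in opposite directions without a call. Abca1 had 4.24, 11.1 and 13.2 units in Raptor KO and 7.94, 8.56 and 18.7 units in Raptor fl/fl, with wide overlap.

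Both Raptor KO calls depended on single libraries. For Hmgcs1 the adjusted p was 0.0804 or 0.0558 when fl/fl replicate 1 or 2 was dropped, and 0.0856 or 0.0767 when KO replicate 2 or 3 was dropped. For Fdps it was 0.111 without fl/fl replicate 1, and 0.101 or 0.0797 without KO replicate 2 or 3. In GENCODE M21 (GRCm38), 557 exon bases of Hmgcs1 overlap Gm48342 on the other strand and 1124 of Fdps overlap Gm43738 on the same strand, so these reads cannot be told apart. Other cell markers moved with the deletion. The 10 B cell markers summed to 185, 143 and 158 units in Raptor KO, against 839.8, 1220 and 939.6 units in Raptor fl/fl. Megakaryocyte markers summed to 467, 480.1 and 494 units in Raptor KO, against 1069, 1227 and 1157 units in Raptor fl/fl, with 2 of the 7 tested lower. The 12 erythroid markers summed to 1454, 1144 and 1624 units in Raptor KO, against 2631, 2384 and 2548 units in Raptor fl/fl, and the 15 cell cycle genes to 9953, 9304 and 9867 units against 12650, 11960 and 11600 units. The 15 macrophage markers in the table summed to 485, 1187 and 909 units in Raptor KO, against 399, 431 and 395 units in Raptor fl/fl, with 1 of the 14 tested higher and 1 lower. Their part in the changes was not tested, and in bulk RNA fewer cells of a type and less RNA per cell cannot be told apart.

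**Figure D2:**
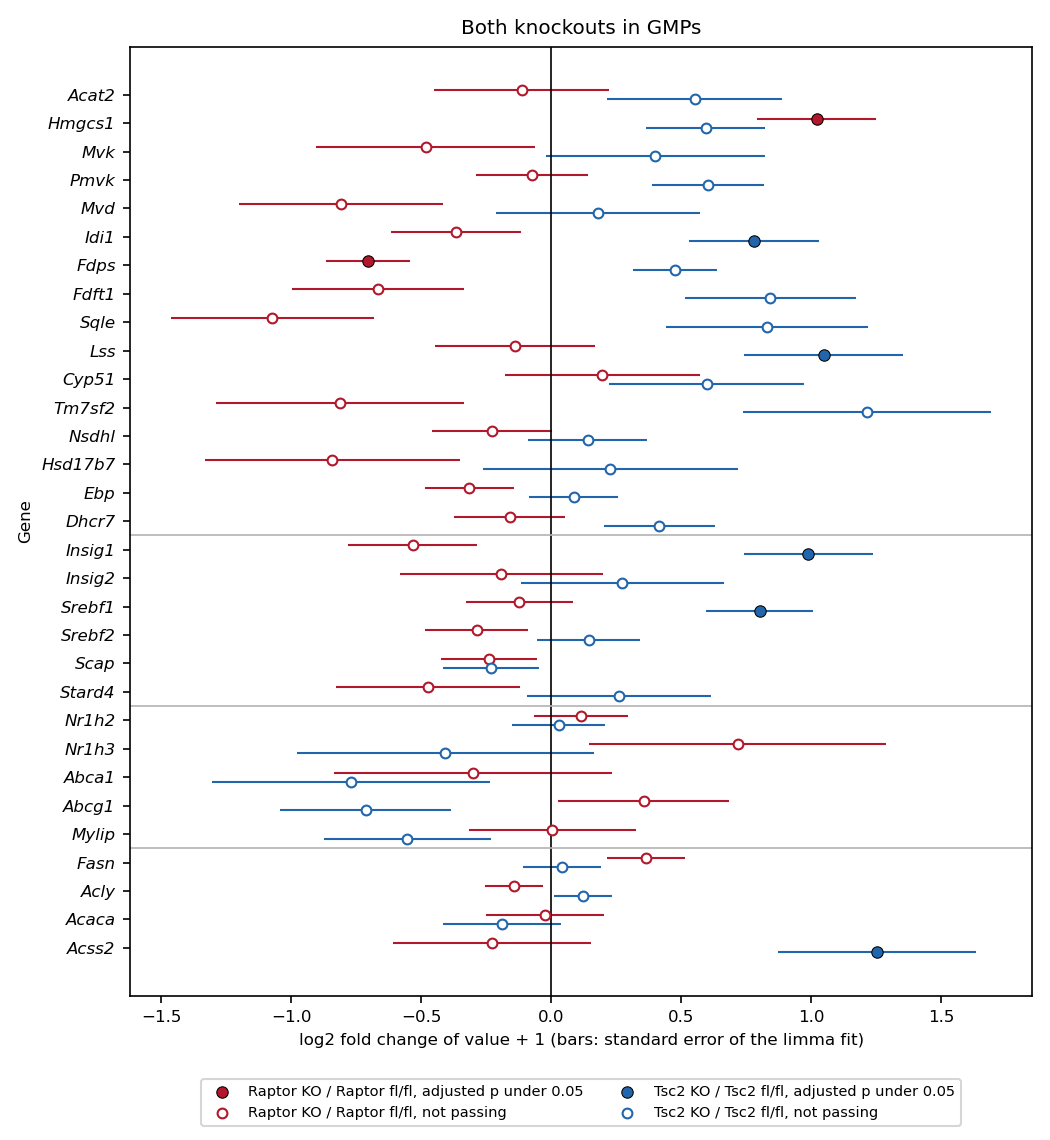
Log2 fold changes with their standard errors are shown for 31 genes in rows, Raptor KO over Raptor fl/fl above Tsc2 KO over Tsc2 fl/fl for each gene. Filled points passed the test, Hmgcs1 and Fdps in Raptor KO and Idi1, Lss, Insig1, Srebf1 and Acss2 in Tsc2 KO.

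Deletion of Tsc2 was set against Tsc2 fl/fl GMPs, and 5 of the 31 genes rose while none fell. The risers were Idi1, which isomerises isopentenyl diphosphate, Lss, which cyclises squalene epoxide to lanosterol, Insig1, Srebf1, and Acss2, which makes acetyl-CoA from acetate. Over all genes 12.4% passed, 5.26% higher and 7.12% lower. All 16 sterol enzymes had a positive fold change (median log2 change 0.57, beside -0.02 for all genes tested), and 8 of them had every KO library above every fl/fl library, an arrangement found in 14.6% of all genes. In Tsc2 KO replicates 1, 2 and 3, 16, 15 and 16 of the 16 enzymes exceeded their fl/fl mean.

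Idi1 had 194, 215 and 142 units in Tsc2 KO, against 73.7, 140.4 and 111 units in Tsc2 fl/fl. The lowest KO library lay just above the highest fl/fl library, and the log2 change was 0.78 ± 0.25 SE (95% interval 0.26 to 1.31, limma adjusted p = 0.0469; adjusted p = 0.0528 with a replicate block). Lss had 74.2, 93.5 and 73.3 units in Tsc2 KO, against 49.4, 47.4 and 23.5 units in Tsc2 fl/fl. The groups were apart, and fl/fl replicate 3 was the lowest (log2 change 1.05 ± 0.31 SE, 95% interval 0.41 to 1.69, limma adjusted p = 0.0316). Of the enzymes without a call, Fdps had 392, 353 and 307 units in Tsc2 KO, against 257, 238 and 258 units in Tsc2 fl/fl (log2 change 0.48, limma adjusted p = 0.06). Hmgcs1 had 196, 88.7 and 120.0 units in Tsc2 KO and 89.3, 82.9 and 80.9 units in Tsc2 fl/fl. KO replicate 2 lay below fl/fl replicate 1, and the log2 change of 0.59 did not pass (limma adjusted p = 0.0959). Sqle had 135, 167 and 120.0 units in Tsc2 KO, against 58.1, 114 and 71.5 units in Tsc2 fl/fl, fully apart but without a call (log2 change 0.83, limma adjusted p = 0.183).

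Insig1 had 163, 179 and 126 units in Tsc2 KO, against 58.1, 74.45 and 106 units in Tsc2 fl/fl. The groups were apart (log2 change 0.99 ± 0.25 SE, 95% interval 0.47 to 1.51, limma adjusted p = 0.0142). Srebf1 had 258, 314 and 311 units in Tsc2 KO, against 111, 209.8 and 202 units in Tsc2 fl/fl. Here too every KO library was higher, and fl/fl replicate 1 lay well under the other fl/fl libraries (log2 change 0.80 ± 0.21 SE, limma adjusted p = 0.0159). The paralog Srebf2 had 169.7, 200.1 and 135 units in Tsc2 KO and 119.6, 169 and 167 units in Tsc2 fl/fl, with overlap (log2 change 0.14, 95% interval -0.27 to 0.56). Scap had 109, 135 and 159 units in Tsc2 KO and 146, 156 and 167 units in Tsc2 fl/fl. Insig2 had 36.5, 36.4 and 31.9 units in Tsc2 KO and 32.9, 33.0 and 21.6 units in Tsc2 fl/fl. Neither passed, with log2 intervals of -0.62 to 0.16 for Scap and -0.54 to 1.09 for Insig2.

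Acss2 had 86.2, 157 and 136 units in Tsc2 KO, against 26.9, 79.5 and 61.1 units in Tsc2 fl/fl. It was the only one of the 4 fatty acid genes tested to pass (log2 change 1.25 ± 0.38 SE, 95% interval 0.45 to 2.06, limma adjusted p = 0.0405). Fasn had 465, 426 and 341 units in Tsc2 KO and 443, 369 and 378 units in Tsc2 fl/fl, and Acly had 672, 587 and 621 units against 561, 566 and 598 units. Their log2 intervals were -0.27 to 0.36 and -0.11 to 0.36. The class median of 0.08 turned to -0.05 under quantile normalization. None of the 5 liver X receptor genes passed, with 0 higher and 1 lower at an unadjusted p under 0.05 and none with voom. Unadjusted, 1654 of all 13237 genes tested were higher and 1948 lower. Abcg1, the exporter to high-density lipoprotein, had 139, 41.3 and 65.2 units in Tsc2 KO and 163, 97.3 and 106 units in Tsc2 fl/fl (log2 change -0.71, 95% interval -1.41 to -0.01, limma adjusted p = 0.175). Abca1 had 11.3, 17.2 and 5.19 units in Tsc2 KO and 18.2, 13.5 and 23.5 units in Tsc2 fl/fl.

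Each Tsc2 KO call was lost without at least 2 single libraries. Dropping fl/fl replicate 1 gave adjusted p-values of 0.237 for Idi1, 0.082 for Insig1, 0.0927 for Srebf1 and 0.185 for Acss2, whose log2 change was then 0.81. Dropping KO replicate 2, a male library by its Y-linked genes, gave 0.198 for Idi1, 0.14 for Lss, 0.0783 for Insig1, 0.0731 for Srebf1 and 0.158 for Acss2. Without KO replicate 3 the values were 0.0558 for Idi1, 0.0844 for Lss, 0.0767 for Srebf1 and 0.137 for Acss2, and without fl/fl replicate 3 they were 0.0958 for Idi1, 0.154 for Lss and 0.0725 for Acss2. Idi1 also lost its call without KO replicate 1 (0.0692), and Srebf1 had a log2 change of 0.51 without fl/fl replicate 1. Exon bases shared with a neighbour number 323 for Idi1 (Gm48574), 381 for Lss (4930483K19Rik), 395 for Acss2 with Gss, 335 with Acss2os and 197 with Ggt7, and 109 for Srebf1 with Rai1.

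Erythroid markers summed to 6298, 13490 and 12130 units in Tsc2 KO, against 1833, 5828 and 3421 units in Tsc2 fl/fl, and 5 of the 12 passed as higher. The 15 macrophage markers in the table summed to 787, 990.3 and 932 units in Tsc2 KO, against 289, 116 and 255 units in Tsc2 fl/fl. The 15 cell cycle genes summed to 14220, 16000 and 15450 units in Tsc2 KO, against 10880, 13970 and 11440 units in Tsc2 fl/fl, and 5 passed as higher. B cell markers summed to 76.2, 38.5 and 21.5 units in Tsc2 KO, against 424, 578 and 339 units in Tsc2 fl/fl. Megakaryocyte markers summed to 181, 159.6 and 161 units in Tsc2 KO, against 355.5, 765 and 564 units in Tsc2 fl/fl, with 4 of the 7 tested lower. The part of these populations in the sterol gene values was not tested. The median log2 deviation of the enzymes from their fl/fl means was 0.66, 0.63 and 0.31 in Tsc2 KO replicates 1, 2 and 3. In Tsc2 fl/fl replicates 1, 2 and 3 it was -0.17, 0.05 and -0.03.

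The Raptor effect was compared directly with the Tsc2 effect in the same fit, as the Raptor log2 change minus the Tsc2 log2 change. Of the 31 genes 6 passed, all more negative for Raptor, namely Idi1, Fdps, Fdft1, Sqle, Insig1 and Srebf1. Over all genes 12.4% passed, 5.99% positive and 6.44% negative. Among the 16 enzymes 15 differences were negative (median -0.94, beside 0.08 for all genes). Fdps differed by -1.18 ± 0.23 SE (limma adjusted p = 0.00384) and Insig1 by -1.52 ± 0.35 SE (limma adjusted p = 0.0096), and both kept the call whichever single library was left out. Sqle, which passed for neither deletion alone, differed by -1.90 ± 0.55 SE (limma adjusted p = 0.0357). Srebf1 differed by -0.92 ± 0.29 SE (limma adjusted p = 0.0438) and Idi1 by -1.15 ± 0.35 SE (limma adjusted p = 0.0407).

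Hmgcs1 had a positive change in both lines, 1.02 in Raptor KO and 0.59 in Tsc2 KO, as did Cyp51, without a call, with 0.20 and 0.60. The Hmgcs1 difference of 0.43 did not pass (95% interval -0.25 to 1.10, limma adjusted p = 0.417). It was the one enzyme of the 16 whose difference was positive. The 5 liver X receptor genes all had positive differences (median 0.56), with none passing, 1 higher at an unadjusted p under 0.05 and none with voom. Abcg1 had a difference of 1.07 (95% interval 0.08 to 2.06, limma adjusted p = 0.15). The fatty acid genes had none passing, 0 positive and 1 negative at an unadjusted p under 0.05 and none with voom, and their median of -0.05 became 0.07 under quantile normalization. Unadjusted, 1881 of all 13237 genes tested were positive and 1740 negative.

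Fdft1, squalene synthase, had 24.1, 46.1 and 33.8 units in Raptor KO and 36.1, 82.5 and 51.9 units in Raptor fl/fl, and 65.6, 88.0 and 68.9 units in Tsc2 KO and 44.2, 51.6 and 29.2 units in Tsc2 fl/fl. Its groups overlapped for Raptor and not for Tsc2, and the difference was -1.51 ± 0.47 SE (limma adjusted p = 0.0414). Fdft1 shares 774 exon bases with Ctsb, a lysosomal protease gene on the other strand with far more fragments. Ctsb itself had 1441, 1508 and 1719 units in Tsc2 KO, against 532, 599.8 and 639.5 units in Tsc2 fl/fl, and SmartSeq2 libraries keep no strand, so reads in the shared bases cannot be told apart. In Raptor KO Ctsb had 890, 1197 and 1020 units, against 715.7, 716.2 and 703.5 units in Raptor fl/fl. There Ctsb had a log2 change of 0.53 (limma adjusted p = 0.022) and Fdft1 one of -0.67 without a call. Leaving out single libraries ended the call in 8 of 12 cases for Idi1, 8 for Fdft1, 7 for Sqle and 8 for Srebf1. Idi1 was called only without Raptor fl/fl 2, Tsc2 fl/fl 2, Tsc2 KO 1 or Tsc2 KO 3, and its highest adjusted p was 0.107, without Tsc2 KO 2. Fdft1 was called only without Tsc2 KO 1, Raptor KO 2, Tsc2 fl/fl 2 or Raptor fl/fl 1 (highest 0.106, without Raptor fl/fl 2). Sqle lost the call without Raptor fl/fl 1 or 3, Raptor KO 3, Tsc2 fl/fl 1 or 3 or Tsc2 KO 2 or 3 (highest 0.0916, without Tsc2 fl/fl 1). Srebf1 kept it only without Raptor fl/fl 2, Tsc2 fl/fl 2 or 3 or Tsc2 KO 1 (highest 0.105, without Tsc2 KO 3).

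**Figure D3:**
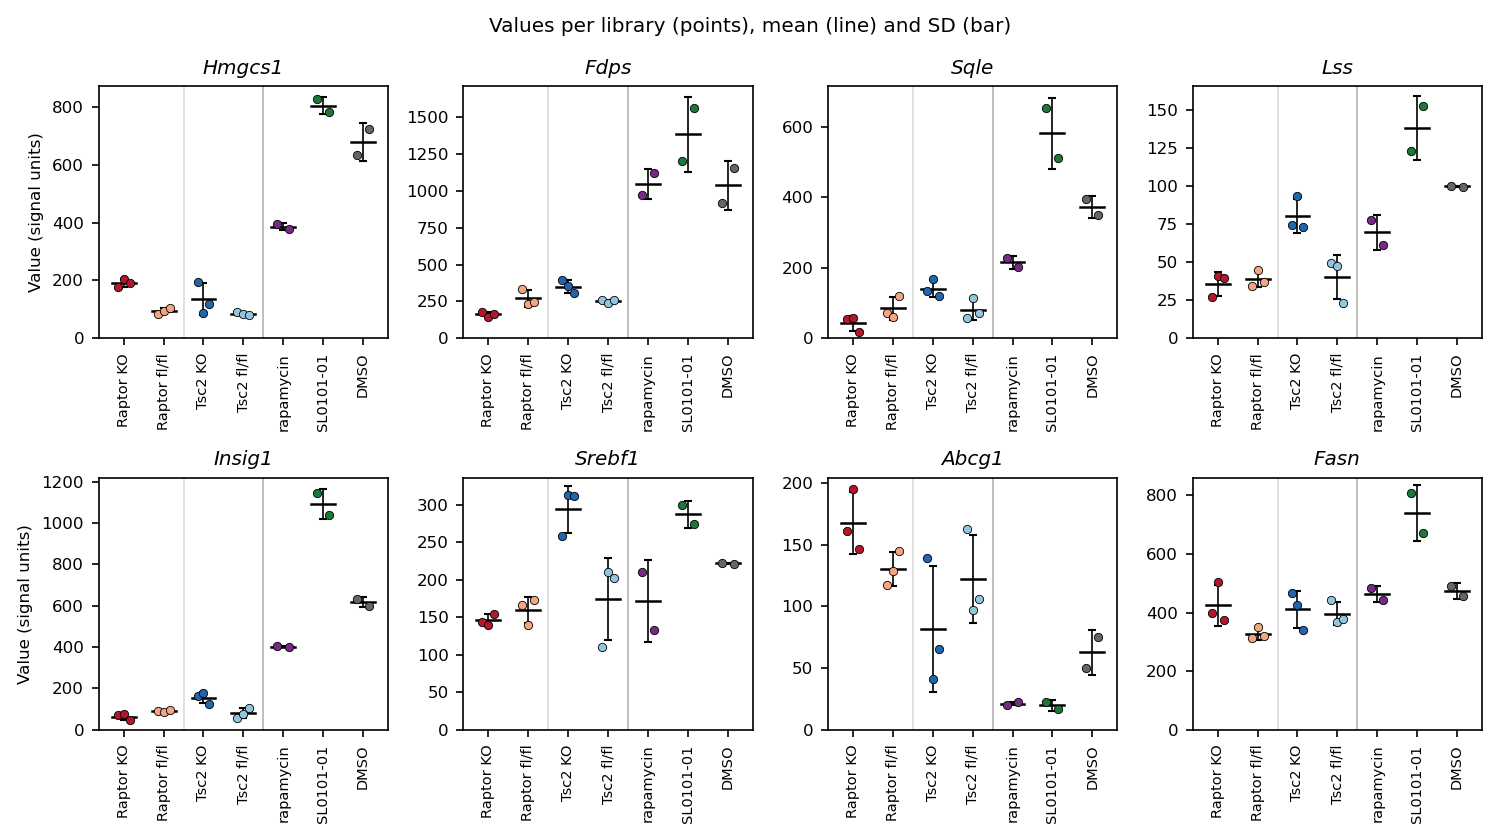
Values in units are shown for 8 genes, 1 panel each, in the 7 groups, with a point per library, a line at the mean and a bar for the SD. Hmgcs1 is above its fl/fl group in Raptor KO and below DMSO under rapamycin, and Insig1 spans 46.0 units in a Raptor KO library to 1142 units in an SL0101-01 library.

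In Hoxb8 cells rapamycin was set against DMSO, and 7 of the 31 genes fell while none rose. They were Hmgcs1, Fdft1, Sqle, Cyp51, the lanosterol demethylase, Insig1, Abcg1 and Mylip. Over all 11804 genes tested 11.7% passed, 5.40% higher and 6.35% lower. Of the 16 enzymes 15 had a negative fold change (median log2 change -0.40, beside -0.01 for all genes) and 10 had both rapamycin libraries below both DMSO libraries, an arrangement found in 27.0% of all genes. The rapamycin libraries had 0 and 3 of the 16 enzymes above the DMSO mean.

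Hmgcs1 had 395 and 377 units under rapamycin, against 634 and 725 units in DMSO. Both rapamycin libraries were far below (log2 change -0.81 ± 0.14 SE, limma adjusted p = 0.000489), and the call held whichever single library was left out. Sqle had 228 and 203 units under rapamycin, against 394 and 349 units in DMSO (log2 change -0.78 ± 0.16 SE, limma adjusted p = 0.00209). Cyp51 had 146 and 157 units under rapamycin, against 250.5 and 273 units in DMSO (log2 change -0.79 ± 0.16 SE, limma adjusted p = 0.00222). For both genes the libraries of each group agreed to within a narrow range. Fdft1 had 276 and 200.4 units under rapamycin, against 338 and 352 units in DMSO (log2 change -0.55 ± 0.17 SE, limma adjusted p = 0.0343), and its overlapping neighbour Ctsb had 2450 and 2176 units against 4515 and 4651 units. Fdps, by contrast with its fall in Raptor KO GMPs, had 972 and 1119 units under rapamycin and 919.7 and 1155 units in DMSO, a log2 change of 0.02 with a 95% interval of -0.31 to 0.34. Whether the Fdps or Hmgcs1 changes differ between Raptor deletion and rapamycin was not tested, since cells and fits differ.

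Insig1 had 404 and 401 units under rapamycin, against 634 and 600.0 units in DMSO. The log2 change was -0.61 ± 0.14 SE (limma adjusted p = 0.00515), and no other gene of the SREBP system passed. Srebf1 had 209.9 and 133 units under rapamycin, against 222 and 222 units in DMSO. Rapamycin replicate 1 was close to DMSO and replicate 2 was well below it (log2 change -0.41, 95% interval -0.80 to -0.01, limma adjusted p = 0.196). Srebf2 had 403 and 349 units under rapamycin and 410.1 and 428 units in DMSO (log2 change -0.16, 95% interval -0.47 to 0.15). Scap had 90.7 and 63.8 units under rapamycin, against 58.5 and 49.8 units in DMSO, and was the one gene of this class on the higher side (log2 change 0.49, limma adjusted p = 0.255). Insig2 had 57.7 and 70.5 units under rapamycin and 58.5 and 76.4 units in DMSO, with overlap.

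Of the 7 genes that fell, Abcg1 and Mylip had the largest estimated changes. Abcg1 had 20.2 and 22.4 units under rapamycin, against 49.8 and 75.5 units in DMSO (log2 change -1.49 ± 0.35 SE, limma adjusted p = 0.00561). Mylip had 39.4 and 20.2 units under rapamycin, against 95.6 and 77.2 units in DMSO (log2 change -1.57 ± 0.32 SE, limma adjusted p = 0.00166). The groups were apart for both. Abca1 had 6.42 and 5.599 units under rapamycin, against 14.2 and 9.96 units in DMSO, at 5 to 18 fragments per Hoxb8 library, and did not pass (log2 change -0.88, 95% interval -1.94 to 0.17). Fatty acid synthesis had no call, no gene at an unadjusted p under 0.05 and none with voom. Among all 11804 genes tested, 1323 were higher and 1559 lower unadjusted. Fasn had 483 and 443 units under rapamycin and 492 and 455 units in DMSO (95% interval of the log2 change -0.34 to 0.28), and Acly had 868 and 682 units against 856.5 and 864 units (-0.46 to 0.14).

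Without DMSO replicate 1 the adjusted p was 0.186 for Fdft1, 0.0838 for Sqle, 0.102 for Insig1 and 0.0822 for Mylip, and without DMSO replicate 2 it was 0.249 for Fdft1, 0.0728 for Cyp51, 0.0645 for Insig1 and 0.171 for Abcg1. Without rapamycin replicate 2 Fdft1 had a log2 change of -0.32 (adjusted p 0.271). The library left alone in its group is assumed in such a fit to vary like the others. The summed GMP markers were higher under rapamycin, and the summed mature neutrophil markers were lower. The 10 GMP markers summed to 60970 and 60210 units under rapamycin, against 13810 and 15080 units in DMSO, and the 10 mature neutrophil markers to 62920 and 96780 units against 115100 and 159800 units. Mpo alone averaged 41200 units under rapamycin and 6470 units in DMSO. Of the 10 GMP markers 6 passed as higher and 0 as lower, and 1 had a negative log2 change (-1.70). Macrophage markers summed to 14370 and 13500 units under rapamycin, against 22950 and 26300 units in DMSO. Most of this sum was Lyz2, which averaged 13300 units under rapamycin and 23700 units in DMSO. Of the 15 markers, 9 lay below 1 unit in every rapamycin library and 10 in every DMSO library. Only 5 were tested, with 3 lower and 0 higher by the test, and 1 of the 5 had a positive change (log2 change 1.61). The cell cycle genes summed to 9497 and 11540 units under rapamycin, against 13210 and 13240 units in DMSO, with 8 of 15 lower by the test. Their part in the fall of the sterol genes was not tested. Erythroid markers, which moved with Tsc2, summed to 1.83 to 11.9 units in all 6 Hoxb8 libraries.

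**Figure D4:**
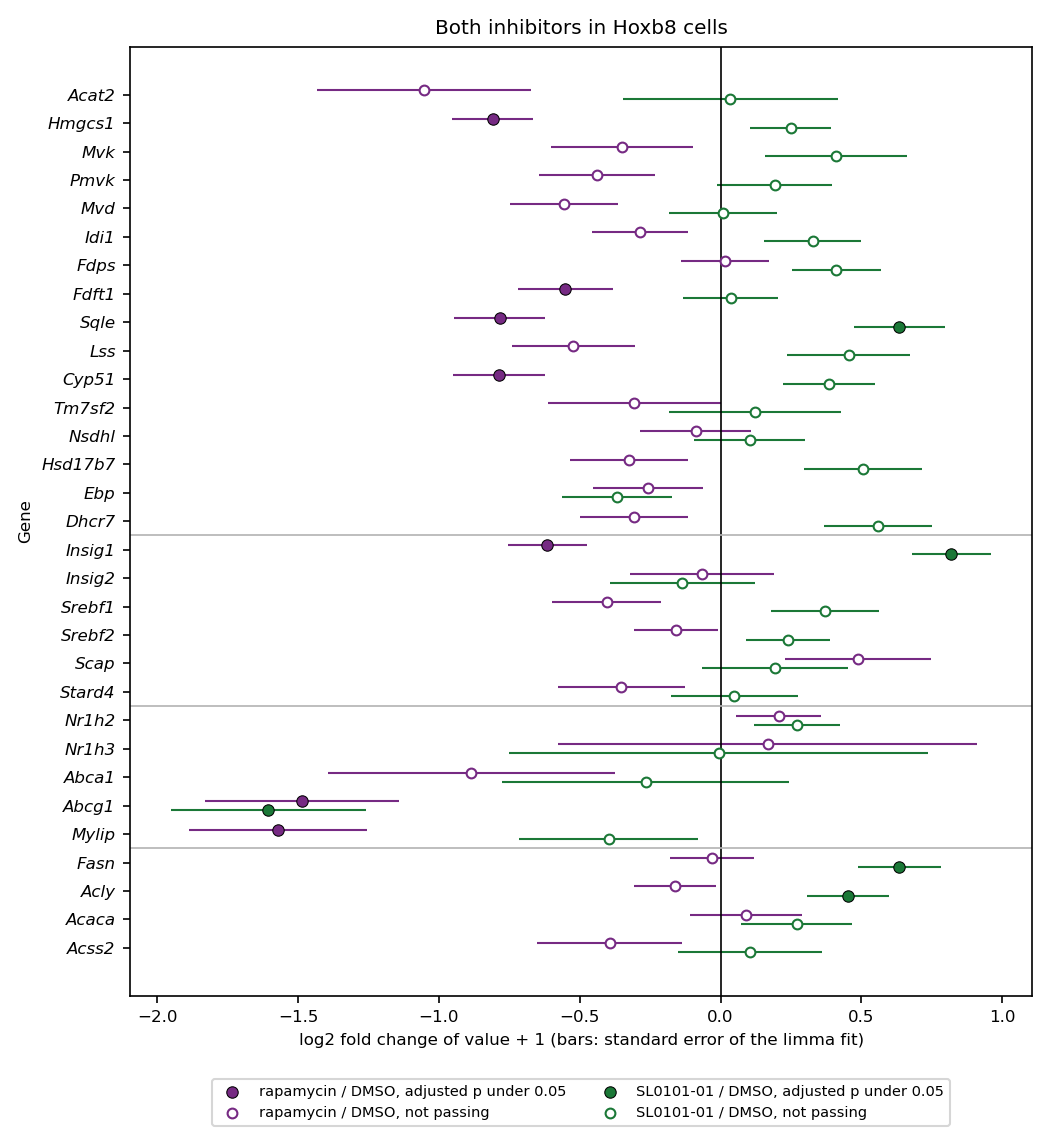
Log2 fold changes with their standard errors are shown for 31 genes in rows, rapamycin over DMSO above SL0101-01 over DMSO for each gene, both set against the same 2 DMSO libraries. Filled points passed the test, 7 under rapamycin, all negative, and 5 under SL0101-01, of which Abcg1 is the negative one.

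SL0101-01 was set against the same DMSO libraries. Sqle, Insig1, Fasn and Acly rose and Abcg1 fell. Over all genes 10.9% passed, 5.09% higher and 5.79% lower. Of the 16 enzymes 15 had a positive fold change (median log2 change 0.29, beside -0.02 for all genes) and 10 had both SL0101-01 libraries above both DMSO libraries, beside 26.6% of all genes. None had both below, beside 28.2% of all genes.

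Sqle had 652 and 510.0 units under SL0101-01, against 394 and 349 units in DMSO (log2 change 0.63 ± 0.16 SE, limma adjusted p = 0.013). Insig1 had 1142 and 1039 units under SL0101-01, against 634 and 600.0 units in DMSO (log2 change 0.82 ± 0.14 SE, limma adjusted p = 0.000554). The groups were apart, and the Insig1 call held whichever single library was left out. Fasn had 806 and 671 units under SL0101-01, against 492 and 455 units in DMSO (log2 change 0.64 ± 0.15 SE, limma adjusted p = 0.00737). Acly had 1164 and 1192 units under SL0101-01, against 856.5 and 864 units in DMSO (log2 change 0.45 ± 0.15 SE, limma adjusted p = 0.0479). Both fatty acid genes therefore stood above DMSO in both libraries, and all 4 genes of the class had positive changes (median 0.36). Abcg1 had 22.7 and 16.7 units under SL0101-01, against 49.8 and 75.5 units in DMSO (log2 change -1.61 ± 0.35 SE, limma adjusted p = 0.00386).

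Hmgcs1 had 826 and 784 units under SL0101-01, against 634 and 725 units in DMSO. It lay above DMSO in both libraries without passing (log2 change 0.25, 95% interval -0.05 to 0.55, limma adjusted p = 0.309). Srebf1 had 300.0 and 274 units under SL0101-01 and Srebf2 had 512 and 479 units, against 222 and 222 units and 410.1 and 428 units in DMSO. Both were above DMSO without a call (log2 changes 0.37 and 0.24). Scap had 64.7 and 59.1 units, Insig2 56.0 and 65.9 units and Abca1 11.4 and 8.34 units under SL0101-01, and none passed. Mylip had 83.1 and 50.8 units under SL0101-01, against 95.6 and 77.2 units in DMSO, with overlap (log2 change -0.40, 95% interval -1.05 to 0.26). Fdft1 had a log2 change of 0.04 without a call. Its overlapping neighbour Ctsb had 3114 and 3147 units under SL0101-01, against 4515 and 4651 units in DMSO (log2 change -0.55, limma adjusted p = 0.00797).

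Without DMSO replicate 1 the adjusted p was 0.0845 for Sqle and 0.0713 for Fasn, and without DMSO replicate 2 it was 0.211 for Sqle, 0.148 for Fasn and 0.151 for Abcg1. Without SL0101-01 replicate 1 it was 0.236 for Sqle and 0.152 for Fasn, and Acly lost its call whichever of the 4 libraries was left out (0.176 to 0.263). GMP markers summed to 26940 and 34580 units under SL0101-01, against 13810 and 15080 units in DMSO, and the cell cycle genes to 14970 and 15610 units against 13210 and 13240 units. Mpo alone averaged 17500 units under SL0101-01 and 6470 units in DMSO. Of the 10 GMP markers 5 passed as higher and 0 as lower, and 3 had a negative change, 1 of them called with voom. Mature neutrophil markers summed to 54120 and 81510 units under SL0101-01, against 115100 and 159800 units in DMSO, and macrophage markers to 11440 and 12580 units against 22950 and 26300 units. Of the 15 macrophage markers, 10 lay below 1 unit in every SL0101-01 library. Only 5 were tested, of which 4 passed as lower and 1 as higher. The part of these lists in the result was not tested.

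The inhibitors were then compared with each other, at 100 nM rapamycin and 10 nM SL0101-01, doses that differ. Of the 31 genes 13 were lower under rapamycin and none higher, while over all genes 8.87% passed, 4.43% higher and 4.44% lower. With voom weights 449 genes of all passed as higher and 704 as lower, against 523 and 524. The lower genes were 8 sterol enzymes (Hmgcs1, Idi1, Fdft1, Sqle, Lss, Cyp51, Hsd17b7 and Dhcr7), Insig1, Srebf1, Mylip, Fasn and Acly. The median log2 difference of the enzymes was -0.70, beside 0.01 for all genes, and 13 of the 16 had both rapamycin libraries below both SL0101-01 libraries, beside 25.1% of all genes. None had both above, beside 26.1% of all genes.

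Insig1 differed most clearly, with 404 and 401 units under rapamycin against 1142 and 1039 units under SL0101-01 (log2 difference -1.43, limma adjusted p = 3.89e-06). Sqle had 228 and 203 units under rapamycin, against 652 and 510.0 units under SL0101-01 (log2 difference -1.42, limma adjusted p = 2.01e-05). Hmgcs1 differed by -1.06 (limma adjusted p = 0.000124) and Cyp51, with 146 and 157 units under rapamycin against 359 and 325 units under SL0101-01, by -1.17 (limma adjusted p = 0.000165). These 4 calls held whichever single library was left out. Other enzymes of the pathway were lower too. Lss had 77.9 and 61.6 units under rapamycin, against 123 and 153 units under SL0101-01 (log2 difference -0.98, limma adjusted p = 0.00762). Hsd17b7, a sterol ketoreductase, had 81.6 and 71.7 units under rapamycin, against 131 and 142 units under SL0101-01 (log2 difference -0.83, limma adjusted p = 0.0163). Dhcr7, the last enzyme of cholesterol synthesis, had 144 and 105 units under rapamycin, against 232 and 219 units under SL0101-01 (log2 difference -0.87, limma adjusted p = 0.00719). Idi1 had 260.3 and 327 units under rapamycin, against 410.2 and 487 units under SL0101-01 (log2 difference -0.61, limma adjusted p = 0.0289).

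Srebf1 differed by -0.77 (limma adjusted p = 0.0147), Fasn by -0.67 (limma adjusted p = 0.00751), Acly by -0.61 (limma adjusted p = 0.0108), Fdft1 by -0.59 (limma adjusted p = 0.0317) and Mylip by -1.17 (limma adjusted p = 0.0235). Abcg1, low under both inhibitors, had a log2 difference of 0.12 with a 95% interval of -0.60 to 0.84. Srebf2 had a difference of -0.40 without a call (limma adjusted p = 0.0981). Without rapamycin replicate 2 the calls of Fdft1 (0.226), Lss (0.0592), Hsd17b7 (0.0758), Dhcr7 (0.0684), Srebf1 (0.159), Mylip (0.215) and Acly (0.0867) were lost, given as adjusted p-values, with log2 differences of -0.36 for Fdft1, -0.45 for Srebf1 and -0.71 for Mylip. Without SL0101-01 replicate 1 those of Idi1 (0.0997), Fdft1 (0.194), Lss (0.0503), Hsd17b7 (0.114), Dhcr7 (0.108), Srebf1 (0.164), Mylip (0.32), Fasn (0.16) and Acly (0.106) were lost. Without SL0101-01 replicate 2 those of Idi1 (0.192), Fdft1 (0.109), Lss (0.0843), Hsd17b7 (0.0956) and Acly (0.064) were lost, and without rapamycin replicate 1 that of Idi1 (0.174). The cell cycle genes summed to 9497 and 11540 units under rapamycin, against 14970 and 15610 units under SL0101-01, with 10 of 15 lower. GMP markers summed to 60970 and 60210 units under rapamycin, against 26940 and 34580 units under SL0101-01, with 5 of 10 higher. Mature neutrophil markers summed to 62920 and 96780 units under rapamycin, against 54120 and 81510 units under SL0101-01, with 5 of 10 higher, and the part of these lists was not tested.

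The levels of these genes also differed between Hoxb8 cells and GMPs. This is a description with no test, because sorted marrow cells and a cultured line differ in many respects. In 14 of the 31 genes all 6 Hoxb8 libraries lay above all 12 GMP libraries, in 1 below, and 16 overlapped, while 11.8% of all genes lay above and 14.0% below. The 14 comprise 10 sterol enzymes, Insig1, Srebf2, Nr1h2 and Acly. Insig1 averaged 703 units in Hoxb8 cells and 97.8 units in GMPs, a ratio of 7.196. Hsd17b7 averaged 103 units in Hoxb8 cells and 16.0 in GMPs (ratio 6.47), Mvd, which makes isopentenyl diphosphate, 156 and 25.9 units (6.03) and Fdft1 312 and 51.8 units (6.02). Hmgcs1 averaged 624 units in Hoxb8 cells and 126 units in GMPs (4.94), and Fdps 1155 and 259 units (4.46). Nsdhl, a dehydrogenase of sterol demethylation, had the smallest ratio of the 10 enzymes, 2.05. Scap ran the other way, at 49.8 to 90.7 units in Hoxb8 libraries and 105 to 167 units in GMP libraries (0.469). Together the genes took 0.237 to 0.414% of the fragments in Hoxb8 libraries and 0.119 to 0.190% in GMP libraries.

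**Figure D5:**
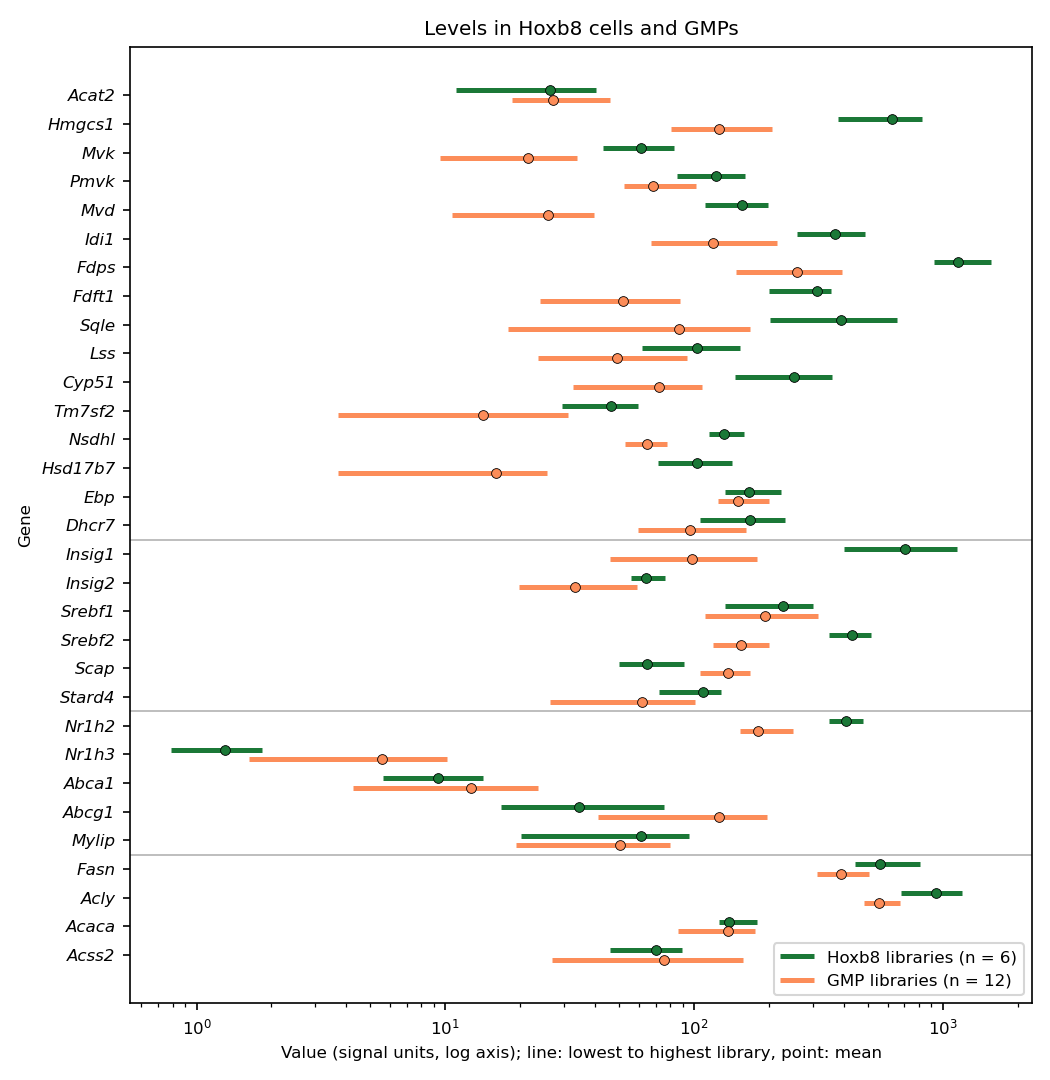
For each gene a line runs over the lowest to the highest library and a point marks the mean, in units on a log axis, for Hoxb8 cells (6 libraries) above GMPs (12 libraries). Insig1 and 10 sterol enzymes show separated lines with Hoxb8 higher, and Scap shows the reverse.

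Genes that process SREBP and those that branch from the pathway were called only in Tsc2 KO and in the difference of effects. Of 10 genes that process or retain SREBP, 1 rose and 1 fell in Tsc2 KO, where 5.26% of all genes passed as higher and 7.12% as lower. Lpin1, a phosphatidate phosphatase known to act between mTORC1 and SREBP, averaged 119 ± 21.4 units in Tsc2 KO and 52.6 ± 17.0 units in Tsc2 fl/fl (SD, n = 3 each, log2 change 1.19, limma adjusted p = 0.023). Mbtps2, the protease of the second SREBP cleavage, averaged 24.4 ± 10.1 units in Tsc2 KO and 53.3 ± 10.8 units in Tsc2 fl/fl (log2 change -1.17, limma adjusted p = 0.026). Lpin1 and Rnf139 passed in the difference of the Raptor and Tsc2 effects, at -1.69 and -1.34, where 6.44% of all genes passed as negative. In Raptor KO limma called none of the 10, with 1 higher and 1 lower at an unadjusted p under 0.05 and none with voom. Of all 13237 genes 1193 were higher and 1317 lower unadjusted. In rapamycin against DMSO and in SL0101-01 against DMSO limma called none, with none at an unadjusted p under 0.05 and none with voom, and in rapamycin against SL0101-01 none, with 0 higher and 1 lower unadjusted and none with voom. In these 3 comparisons 1323, 1363 and 1373 of all 11804 genes were higher unadjusted, and 1559, 1460 and 1414 lower.

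Of 12 genes that use isoprenoids made by the pathway, 1 rose and 1 fell in Tsc2 KO, beside 5.26% and 7.12% of all genes. Rabggtb, a subunit of the transferase that prenylates Rab proteins, rose in Tsc2 KO, with 430 ± 34.3 units against 261 ± 58.7 units in Tsc2 fl/fl (SD, n = 3 each, log2 change 0.74, limma adjusted p = 0.0059). Coq2, of ubiquinone synthesis, fell there, with 70.9 ± 10.5 units against 124 ± 6.81 units in Tsc2 fl/fl (log2 change -0.80, limma adjusted p = 0.03), and its difference between the effects was 1.14. In that difference 1 of the 12 passed, where 5.99% of all genes passed as positive. Limma called none of the 12 in Raptor KO or under the inhibitors. At an unadjusted p under 0.05 there were 0 in Raptor KO, 3 higher and 1 lower in rapamycin against DMSO, 2 higher in SL0101-01 against DMSO and 1 higher in rapamycin against SL0101-01, and voom called none in these 4 comparisons. For the inhibitor comparisons in that order, 1323, 1363 and 1373 of all 11804 genes were higher unadjusted, and 1559, 1460 and 1414 lower.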

How the data were processed

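RNA from 18 libraries was measured by low-input RNA-seq (SmartSeq2, per the labels' protocols). Sorted GMPs were pools of 10000 cells. The deposited table holds a normalized signal per gene, which the authors made with TopHat2 2.0.10, BWA, Cufflinks 2.2.1 and Cuffnorm, per the submitters' processing notes. No genome build is stated in the labels or the table, so none is assumed for the counting. Each library's values were whole multiples of 1 step for 98.8 to 99.0% of entries and for all 576 values of these genes (tolerance 0.01), so fragments per gene could be counted back, and their totals set the precision.

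Values were tested with limma 3.58.1 (R 4.3.3) as log2(value + 1), with an expression trend and robust moderation, in 1 fit of 12 GMP libraries (values of at least 1 in 3 libraries) and 1 of 6 Hoxb8 libraries (at least 1 in 2), with the Benjamini-Hochberg adjustment over all genes of each of 6 comparisons and a threshold of 0.05. Fold changes on this scale understate changes of low genes. The procedure was also run on simulated data, and the outcome is not used here as evidence on power or false calls. Tables were joined in Python 3.11.15. Promoter windows come from RefSeq (GRCm38.p6) and exon overlaps from GENCODE M21. The genes, the other lists and the tests were chosen with earlier results of these data known. All 32 genes were to be accounted for, with values per library for those that passed anywhere and for Hmgcs1, Sqle, Srebf1, Srebf2, Insig1, Insig2, Scap, Abca1, Fasn and Acly, and of each other list up to 4 genes that passed per comparison, those with the largest change. For glycerolipid synthesis and for citrate and NADPH supply, not all of the latter are named. Rptor and Tsc2 were named as targets, and Ctsb was named after its values were seen. Alternatives were another normalization, filter, pseudocount, trend and set of libraries, a replicate block, voom weights and each library left out.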

Additional observations from a re-analysis of the deposited data

Results flagged for a closer look

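For 6 genes the Raptor effect and the Tsc2 effect in GMPs differed by the direct test of the difference. The difference in log2 change, Raptor minus Tsc2, was -1.15 for Idi1, -1.18 for Fdps, -1.51 for Fdft1, -1.90 for Sqle, -1.52 for Insig1 and -0.92 for Srebf1. Idi1, Insig1 and Srebf1 passed in Tsc2 KO and not in Raptor KO, Fdps passed in Raptor KO and not in Tsc2 KO, and Sqle and Fdft1 passed in neither deletion. The 2 lines use separate fl/fl groups, and litter or processing day cannot be told apart from line.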

How the results depend on the processing

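The counts of these genes past the threshold were 2, 5, 6, 7, 5 and 13 for Raptor KO, Tsc2 KO, the difference of both effects, rapamycin against DMSO, SL0101-01 against DMSO and rapamycin against SL0101-01. Without an expression trend they were 0, 1, 2, 0, 0 and 0. The 1 in Tsc2 KO was none of the 5 genes called there in the main fit, and the 2 in the difference were Fdps and Insig1. Unadjusted p-values under 0.05 then numbered 4 in Raptor KO, 10 in rapamycin against DMSO, 6 in SL0101-01 against DMSO and 17 in rapamycin against SL0101-01, and that fit called 0 genes of all in the last. With all 18 libraries in 1 fit the counts were 10 in Tsc2 KO, 3 and 3 for the inhibitors against DMSO and 4 between the inhibitors. Tsc2 KO had 3 with a common total per library, 3 without a filter on low values, 3 without both male GMP libraries (found by Y-linked genes), and 0 when only its own groups were fitted, with 10 at an unadjusted p under 0.05. The male libraries were Tsc2 fl/fl replicate 2 and Tsc2 KO replicate 2. Without them Idi1, Lss and Insig1 lost the Tsc2 KO call, Srebf1 and Acss2 kept it, and 1 gene not called in the main fit passed. The difference had 3 without a filter. With voom weights on recovered fragments, chosen after seeing the data, the counts were 2, 5, 5, 7, 7 and 17. Leaving out single libraries gave 0 to 2, 1 to 5, 2 to 8, 3 to 8, 1 to 4 and 4 to 12. Over the 38 called values, 459 of 637 alternatives kept the call and 178 did not, with 0 reversed. The cause of these losses was not tested. Calls were lost in fits with fewer libraries and also in fits that kept every library, such as those without an expression trend. Of 2553 alternatives for 148 values without a call, 45 passed and 83 changed sign. The Fdps and Insig1 differences kept the call in all 23 alternatives (highest limma adjusted p 0.0373 and 0.0484). The planned count tests on recovered fragments were not run. Few fragments limit Tm7sf2, Hsd17b7, Nr1h3 and Abca1, and intervals there are wide.

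Samples share only replicate numbers, which the labels do not tie to a litter or day. Same-numbered KO and fl/fl libraries had deviations correlated at 0.0257, 0.0475 and 0.0103 in the Raptor line and 0.217, 0.245 and -0.0318 in the Tsc2 line, and Hoxb8 numbers gave 0.0459, 0.0436 and 0.00475. With a replicate block the counts were 2, 5, 7, 9, 7 and 19. In that fit Idi1 lost its call in Tsc2 KO (limma adjusted p = 0.0528), and it was the one called value that did.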

Other observations

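Of 16 genes of sterol transport and storage tested in Hoxb8 cells, 7 passed as lower and 0 as higher in rapamycin against DMSO, where 6.35% of all genes were lower. In SL0101-01 against the same DMSO libraries 6 passed as lower and 0 as higher, where 5.79% of all genes were lower. Lrp1, an endocytic receptor, averaged 35.4 ± 5.70 units under rapamycin, 52.8 ± 7.86 under SL0101-01 and 135 ± 47.4 in DMSO (SD, n = 2 each). Lipa, lysosomal acid lipase, averaged 287 ± 31.5 units under rapamycin, 371 ± 69.6 under SL0101-01 and 756 ± 77.9 in DMSO. Soat1, which esterifies cholesterol, averaged 543 ± 55.8 units under rapamycin, 506 ± 100 under SL0101-01 and 1030 ± 30.1 in DMSO, and Nceh1, which splits the esters, 134 ± 38.8, 154 ± 2.91 and 293 ± 18.2. The limma log2 changes of these 4 genes were -1.86, -1.40, -0.92 and -1.16 for rapamycin and -1.30, -1.04, -1.03 and -0.93 for SL0101-01. Macrophage markers summed to 14370 and 13500 units under rapamycin, 11440 and 12580 under SL0101-01 and 22950 and 26300 in DMSO. Lyz2 alone averaged 13300 units under rapamycin and 23700 units in DMSO. The part of these markers in these falls was not tested. In Raptor KO GMPs, where 3.94% of all genes passed, 1 of 19 such genes passed. This was Apoe, a lipoprotein component secreted by macrophages, with 2690 ± 275 units in Raptor KO and 1350 ± 225 units in Raptor fl/fl (SD, n = 3 each, limma log2 change 1.01, adjusted p = 0.042). In Tsc2 KO 2 of the 19 passed, both lower, where 7.12% of all genes were lower. Vldlr, the very low density lipoprotein receptor, had 0.458 ± 0.794 units in Tsc2 KO and 7.22 ± 4.79 units in Tsc2 fl/fl (limma adjusted p = 0.021, with too few fragments for a fold), and Rxrb, a retinoid X receptor that pairs with liver X receptors, had 74.8 ± 11.6 units in Tsc2 KO and 142 ± 26.6 units in Tsc2 fl/fl (limma log2 change -0.91, adjusted p = 0.0064).

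Genes of glycerolipid synthesis and of citrate and NADPH supply gave mixed calls, and only a part of the called genes is named here. Of 20 glycerolipid genes tested, 0 passed as higher and 1 as lower in Raptor KO, and 2 and 2 in Tsc2 KO. The difference of effects had 1 and 1, SL0101-01 against DMSO 3 and 1, and rapamycin against SL0101-01 0 and 3. Pcyt1a, which sets the rate of phosphatidylcholine synthesis, averaged 212 ± 18.6 units in Raptor KO and 298 ± 10.2 units in Raptor fl/fl, and 409 ± 16.8 units in Tsc2 KO and 261 ± 26.8 units in Tsc2 fl/fl (SD, n = 3 each), and its effects differed by -1.15 (limma adjusted p = 0.0013). Of the citrate and NADPH genes 13 were tested in GMPs and 11 in Hoxb8 cells. They had 0 higher and 1 lower in Raptor KO, 2 and 0 in Tsc2 KO and 1 and 3 in the difference. Rapamycin against DMSO had 0 and 1, SL0101-01 against DMSO 2 and 1, and rapamycin against SL0101-01 0 and 4. Aacs, acetoacetyl-CoA synthetase, fell under rapamycin to 205 ± 28.3 units, against 347 ± 20.5 units in DMSO (SD, n = 2 each, limma log2 change -0.76, adjusted p = 0.0023). Slc25a1, the mitochondrial citrate carrier, averaged 377 ± 59.4 units under SL0101-01 and 218 ± 9.58 units in DMSO (log2 change 0.78, limma adjusted p = 0.0045). Chka, choline kinase, averaged 305 ± 18.2 units under SL0101-01 and 168 ± 19.9 units in DMSO (log2 change 0.86, limma adjusted p = 0.0021). Limma called none of the 20 glycerolipid genes in rapamycin against DMSO, with 1 higher and 4 lower at an unadjusted p under 0.05 and 0 higher and 1 lower with voom. There 1323 of all 11804 genes were higher and 1559 lower unadjusted. Of all genes 3.94% passed in Raptor KO, 12.4% in Tsc2 KO and 12.4% in the difference. For rapamycin against DMSO, SL0101-01 against DMSO and rapamycin against SL0101-01 the shares were 11.7%, 10.9% and 8.87%.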
